A study of Mus musculus with 12 samples.

Results

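The 6 libraries described here came from pancreatic islets of mice that lack Mettl3 in their β-cells, and they compare RNA pulled down with an antibody against m6A (IP) with unselected RNA of knockout islets (input). N6-methyladenosine, m6A, is the most common internal mark of mRNA. The METTL3-METTL14 complex places it mainly at adenosines within the sequence DRACH, and it is known to gather near stop codons and in long internal exons, where reader proteins of the YTH family bind it and alter splicing, translation or decay. Pancreatic islets are endocrine cell clusters that hold insulin-secreting β-cells together with α-, δ- and PP-cells and with vessel, stromal and immune cells.

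The mice were C57BL/6, 8 weeks old and on normal chow, with the genotype Mettl3 flox/flox RIP-Cre. Cre is driven by the rat insulin promoter, so the other cells of the islet are meant to keep Mettl3, and whole islets were used without sorting. RNA was pooled from 12 knockout mice, and 3 biological replicates gave 3 IP and 3 input libraries. The IP and input libraries numbered alike are called a pool here, although the labels do not say that they share RNA, and each ratio per pool and each count over pools rests on that match. The other 6 of the 12 libraries of the series, from Mettl3 flox/flox mice that carry the same floxed alleles, were not compared here. Members were all 1233 regions, in 1108 genes, of the authors' deposited list of significant differential m6A peaks. That list had been selected on a difference between genotypes that used these same libraries, and 1145 of its regions were listed as lower and 88 as higher in the knockout. Its regions are therefore not a random sample of islet RNA, and the calls below were made on regions already picked as peaks.

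The sites below show, in the sense of the RNA, the DRACH nearest to the middle of a region in capitals (a GGACT before others) in 100 nt at its spliced midpoint, with 12 bases on each side. The first 5 lie in regions among the highest in fitted ratio of IP to input, the next 3 in regions made of 1 stretch of exon with ratios near 1, and the last 3 in regions below input. They are shown because the motif is found in all 3 kinds of region, as it is in 93.5% of 1228 windows. The windows of Zfp639, among the highest, and of Setbp1, below input, held none.
Setd5, chr6:113151289-113151317, plus strand: catcagacttacGGACTatcagtctgccc
Pdik1l, chr4:134278723-134278751, minus strand: ggcatgcgggacGGACTtctacatggctc
Gm26714, chr8:24438744-24438772, plus strand: gagcctctgcagGGACTcctggtctatgt
Nap1l5, chr6:58906116-58906144, minus strand: caagctaagacaGAACTcttctcaatgct
Ripk4, chr16:97743534-97743562, minus strand: gtgctctgatgtTAACAtctgcagcctac
Prune2, chr19:17221092-17221120, plus strand: ttcggtgcagtgGGACTtggttccttaga
Spty2d1, chr7:46992185-46992213, minus strand: agacctacagacAGACTtaatgccatttc
Rfx3, chr19:27767371-27767399, minus strand: aaattttacacaGAACCtgaaggcagtgt
Slc8a1, chr17:81648216-81648244, minus strand: aattcacggaagGGACTgtgatcttcaaa
Arhgef12, chr9:43105311-43105339, minus strand: gagttttgagttGGACTtttgtgtccctg
Inpp4a, chr1:37408222-37408250, plus strand: ggcctccagaagGGACTtacggaaaagtt

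Most of the listed regions still stood above input in the knockout islets. For the ratio of IP to input, each was taken as RPM, the authors' read counts scaled by their total reads of the library. The median ratio over regions was 4.47 in pool 1, 3.44 in pool 2 and 3.42 in pool 3. The mean of these medians was 3.78 ± 0.603 (SD, n = 3). The interquartile range was 2.67 to 7.04 in pool 1, 2.10 to 5.46 in pool 2 and 2.03 to 5.66 in pool 3. By edgeR's quasi-likelihood test, 1103 regions were higher in IP than in input (89.5% of those tested, adjusted p below 0.05), 11 were lower (0.892%) and 119 had no call (9.65%). In 1100 regions all 3 IP values lay above all 3 input values (89.2%), and in 12 all lay below (0.973%). Against a 2-fold difference (edgeR's glmTreat, a rule added after seeing how many passed the first), 867 regions were higher (70.3%) and 4 were lower (0.324%). The ratio was at least 2 in every pool at 848 regions (68.8%), under 2 in every pool at 139, and at least 10 in every pool at 24. Without matching libraries by number, the lowest IP value was at least 2 times the highest input value at 798 regions. All directions are relative to total reads. With trimmed-mean (TMM) scaling on the listed regions themselves, which centres the list, the median log2 ratio of 1.90 became -0.02, and 360 regions were higher and 375 lower. Directions of regions above input but near or under the list's median therefore hold for scaling by total reads alone. No named region below input changed sign with this scaling.

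**Figure D1:**
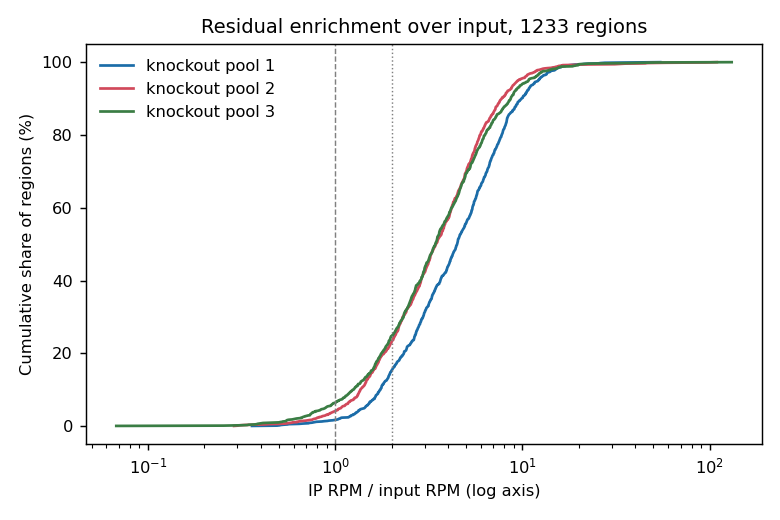
Cumulative share of the 1233 regions (vertical axis, %) against the ratio of IP RPM to input RPM (log axis), with 1 line per knockout pool; the dashed line marks 1 and the dotted line 2. Pool 1 lies to the right of the other pools over most of its course, with medians of 4.47, 3.44 and 3.42.

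Pool 1 gave the highest ratio at 739 regions, pool 2 at 202 and pool 3 at 292. The order of the regions was shared between pools, with Spearman's rho of 0.781 to 0.836 over 1233 regions, a description since regions of a pool share their libraries. IP libraries had 17082320 to 18253329 total reads and inputs 18284420 to 20937525, and the listed regions held 9.73%, 8.54% and 7.83% of the IP reads of pools 1, 2 and 3. Without pool 1 the median fitted log2 ratio went from 1.90 to 1.79 and the number of regions with no call from 119 to 181.

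The highest fitted log2 ratios among regions with a mean input count of at least 20 were in Ehf, Ptms, Nap1l5, Pdik1l, Gm26714, Setd5, Zfp639 and Ripk4, from 4.16 down to 3.83. Ehf encodes an ETS-family transcription factor of epithelia. Its region (chr2:103266460-103267095, 3′UTR) had 2.02, 1.77 and 2.35 RPM in input and 45.3, 34.6 and 30.2 RPM in IP, a fitted log2 ratio of 4.16 (SE 0.291, edgeR adjusted p = 7.0e-44). Nap1l5, a nucleosome assembly protein family gene, had ratios of 20.8, 20.5 and 12.4 (chr6:58905804-58906673, 3′UTR, log2 ratio 4.12). Setd5, which encodes a SET-domain chromatin protein, had ratios of 16.3, 12.6 and 16.1 at the end of its coding sequence (chr6:113150186-113151816, edgeR adjusted p = 1.9e-57). The IP values of these 3 genes lay far above their input values in every pool, and Setd5 had the smallest SD of the 8 regions, with 15.0 ± 2.05 (SD, n = 3).

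The kinase genes Pdik1l and Ripk4 and the zinc finger gene Zfp639 had their regions in coding sequence. Pdik1l had ratios of 25.5, 14.9 and 13.5 and Zfp639 of 16.9, 12.9 and 13.9. Ripk4, a kinase gene of epithelial differentiation, had 15.6, 10.4 and 19.1. Ptms, which encodes the small acidic protein parathymosin, was less even, with 11.4, 33.4 and 15.6. The region of Gm26714, a predicted transcript, had 18.1, 15.0 and 12.4, but it overlaps an exon of Tcim on the other strand, and reads of the pair cannot be told apart here, since the sources used do not state strand-specific counting. In all, 126 of the 1233 regions overlap an exon of another gene.

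By sheer IP signal the list was led by a few abundant RNAs. A region of the nuclear noncoding RNA Malat1 (chr19:5800994-5802073) had 20049, 19934 and 16323 RPM in IP against 2154, 2021 and 2827 RPM in input. Its ratios of 9.31, 9.86 and 5.77 (log2 ratio 3.01, edgeR adjusted p = 4.6e-37) were above the median of all regions. The region overlaps an exon of Gm37376 on the other strand. It had the highest log2 ratio of 5 Malat1 regions, and the lowest had ratios of 1.72, 1.81 and 1.01 (log2 ratio 0.52). Hspa5, the main chaperone of the endoplasmic reticulum (ER), followed with 1562, 1714 and 1482 RPM in IP and ratios of 12.3, 8.55 and 7.31. The mitochondrially encoded mt-Nd6 and mt-Nd2, subunits of respiratory complex I, had low ratios of 2.23, 3.14 and 2.40 and of 2.88, 2.30 and 3.30. Gm26917, a predicted noncoding RNA, had 2.97, 3.69 and 4.07 in 1 of its 2 overlapping regions and 6.15, 6.99 and 5.49 in the other. Lgals3bp, a secreted glycoprotein gene, had 4.15, 3.93 and 7.28 in the higher of its 2 regions.

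Among the 754 regions made of 1 stretch of exon, 662 were higher in IP (87.8%), none was lower by edgeR, and 92 had no call. The number lower was 0 at an unadjusted p under 0.05 as well, and 0 by DESeq2. The lowest of these regions, picked after their values were seen, were Vldlr, Prune2, Spty2d1, Dmxl1, Rfx3, Mia3, Kcnmb2 and Lpgat1. Prune2 had 7.12, 13.7 and 10.9 RPM in input and 9.64, 7.79 and 7.72 RPM in IP at its 3′UTR (chr19:17220994-17221234, log2 ratio -0.33, SE 0.277, edgeR adjusted p = 0.24). Its groups overlap, and without pool 1 it passed as lower (log2 ratio -0.66, edgeR adjusted p = 0.040). Spty2d1, a histone chaperone gene, had ratios of 0.783, 0.911 and 0.733 (chr7:46992100-46992280, 3′UTR, log2 ratio -0.30, edgeR adjusted p = 0.46).

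Rfx3, a transcription factor of ciliated and endocrine cells, had 2.23, 4.44 and 6.29 RPM in input and 4.16, 4.27 and 3.55 RPM in IP (chr19:27767238-27767537, 3′UTR, log2 ratio -0.11, SE 0.357, edgeR adjusted p = 0.77). Its IP and input values overlap, and its ratios were 1.87, 0.962 and 0.565. Mia3, a gene of cargo export from the ER, had ratios of 1.79, 0.939 and 0.525, and Lpgat1, an acyltransferase gene, with 2.00, 1.05 and 0.382 at its lowest region. Dmxl1 had 2.43, 0.588 and 0.620. Vldlr, a lipoprotein receptor gene, had 1.03, 0.553 and 0.757, and Kcnmb2, a potassium channel subunit gene, 1.33, 0.544 and 0.958. The sign of the log2 ratio of Rfx3, Mia3 and Lpgat1 turned without pool 3, to 0.33, 0.34 and 0.50. That of Kcnmb2 turned without pool 2, to 0.19, and that of Dmxl1 without pool 2 or pool 3, to 0.30 or 0.07. At this depth these regions were not distinguishable from input, which does not show that they carry no m6A.

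**Figure D2:**
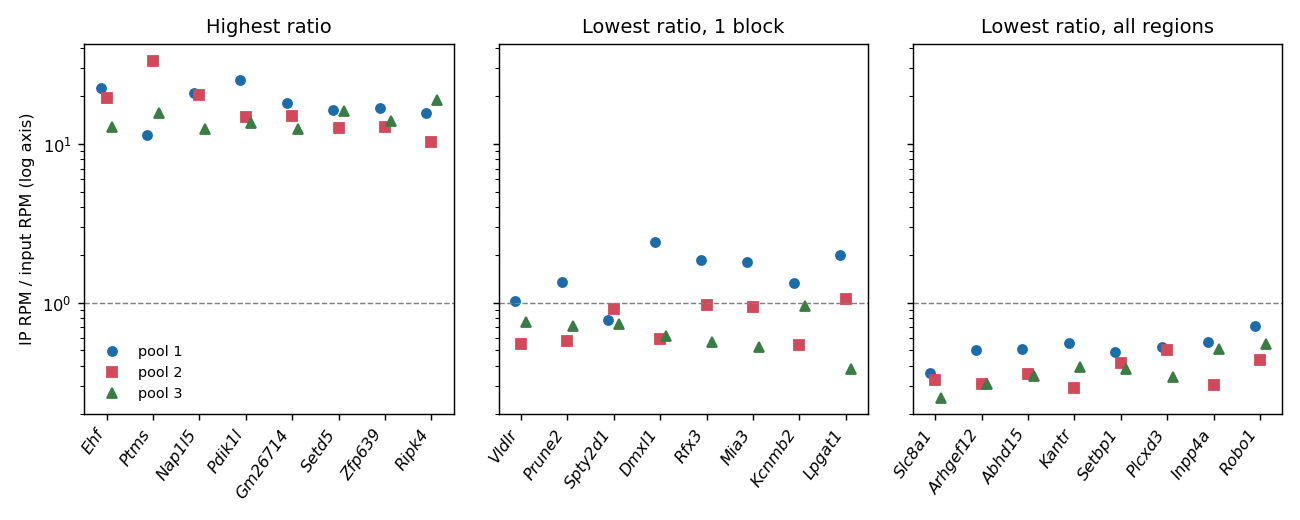
Ratio of IP RPM to input RPM (log axis) in each knockout pool for the 8 regions of highest fitted ratio, the 8 lowest among regions of 1 block, and the 8 lowest of all; points are pools and the dashed line marks 1. Ratios of the first 8 lie between 10.4 and 33.4, those of the second between 0.382 and 2.43, and those of the third lie under 1 in every pool.

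All 11 regions below input reached across an intron. They were in Slc8a1, Arhgef12, Abhd15, Kantr, Setbp1, Plcxd3, Inpp4a, Robo1, Pcm1, Atf6 and March4, and in each the 3 IP values lay below the 3 input values. The sodium-calcium exchanger gene Slc8a1 had 526, 692 and 821 RPM in input and 189, 226 and 207 RPM in IP (chr17:81445566-81648769, log2 ratio -1.71, SE 0.217, edgeR adjusted p = 7.4e-15). Arhgef12, a guanine nucleotide exchange factor gene, had ratios of 0.505, 0.307 and 0.307 (chr9:43044272-43105553, log2 ratio -1.47) and Inpp4a, a lipid phosphatase gene, 0.566, 0.302 and 0.508 (chr1:37404418-37408371, log2 ratio -1.16). Abhd15 had 0.511, 0.354 and 0.344, Kantr 0.556, 0.288 and 0.392, and Setbp1 0.489, 0.418 and 0.384. Robo1, an axon guidance receptor gene, had 0.718, 0.438 and 0.547, Pcm1, a centrosome gene, 0.641, 0.591 and 0.551, and the ubiquitin ligase gene March4 0.766, 0.757 and 0.548. The region of Abhd15 overlaps an exon of Taok1 on the other strand. Plcxd3 had 0.529, 0.504 and 0.339. The call of Robo1 was lost without pool 2 (edgeR adjusted p = 0.078) and that of Atf6 without pool 3 (edgeR adjusted p = 0.066). March4 lost its call without pool 2, without pool 3 and without IP 3 alone (edgeR adjusted p = 0.065, 0.16 and 0.055), while Prune2 and Ptgis were added without pool 1, and the total over the fits without 1 pool or library ran from 9 to 13.

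The exons of these 11 regions were short, with a median of 450 nt, while the introns inside them ran from 3684 to 202215 nt with a median of 54309 nt. Over all 479 regions of more than 1 block the median intron span was 1955 nt. Input reads per kb of exon were also high in the 11, with a median of 108 RPM per kb against 10.8 RPM per kb over all regions, and 10 of them were above the 95th percentile of 64.9 RPM per kb. Of the 62 regions above that percentile 46 were higher in IP, a lower share than the 89.5% of all regions. Whether the authors counted reads over the exon blocks or over the whole span is not given in the sources used here, so reads from introns may be part of these counts.

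Among regions with introns, those that spanned more intron had lower ratios. In the 25 regions with over 20000 nt of intron the median ratio was 1.64, 1.33 and 1.02 in the 3 pools, 12 were higher in IP (48.0%) and 7 were lower. In the 87 regions with over 5000 and up to 20000 nt it was 3.27, 2.55 and 2.37, in the 219 with over 1000 and up to 5000 nt 4.78, 3.86 and 3.48, and in the 148 with up to 1000 nt 5.42, 4.28 and 3.83. The 754 regions with none had 4.48, 3.43 and 3.52. Over the 479 regions of more than 1 block, Spearman's rho of intron span was -0.33 with the fitted log2 ratio and 0.36 with input RPM per kb, both as descriptions.

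Of the 6 most abundant regions with no call, 5 spanned introns, Casr among them. The region of ENSMUSG00000099703 overlaps exons of Gm28285 and Matr3 on the same strand, and its spliced midpoint lies outside exons of its own gene. Chic1 had ratios of 1.04, 0.973 and 0.606 with 16654 nt of intron inside the region, Wdr49 1.33, 1.20 and 0.949 with 29683 nt, 1700019D03Rik 1.01, 1.07 and 0.737 with 26880 nt and ENSMUSG00000099703 1.28, 0.987 and 0.804 with 6515 nt. Atp2a2, the gene of a calcium pump that loads the ER, was the exception, with no intron in its 3′UTR region (chr5:122457018-122457228). It had 45.1, 49.4 and 49.1 RPM in input and 76.3, 54.0 and 44.3 RPM in IP (log2 ratio 0.28, SE 0.210, edgeR adjusted p = 0.19). Its pools overlap, with pool 1 the highest and pool 3 below input.

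Several genes held a region near or below input beside one that was well above it. Of 109 gene symbols with 2 or more regions, 85 had all regions higher in IP. In 22 the lowest and the highest region had different calls. The median distance between the lowest and the highest log2 ratio was 0.92. These figures include genes whose regions overlap, such as Neat1, where both regions had the same ratios. In Arhgef12 the other region (chr9:42972020-42974651, coding) had ratios of 5.73, 7.42 and 4.41, 3.97 log2 units above the one below input. In Slc8a1 the other region (chr17:81388691-81389020, coding) had a lowest ratio of 3.37, in pool 3, and a log2 ratio of 2.05, and its input was 8.58 RPM per kb against 687 RPM per kb in the region below input. The calcium-sensing receptor gene Casr had ratios of 11.9, 9.44 and 10.7 in its 3′UTR (chr16:36493696-36494920) and of 0.793, 0.852 and 0.736 in a region with 43648 nt of intron (chr16:36517687-36562111, edgeR adjusted p = 0.12). In Megf9, where the lower region is 1 block and the higher spans 1685 nt of intron, the pair differed by 3.00 log2 units, with ratios of 17.5, 8.77 and 7.24 against 1.89, 1.08 and 1.02 in a 181 nt region of the 3′UTR.

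**Figure D3:**
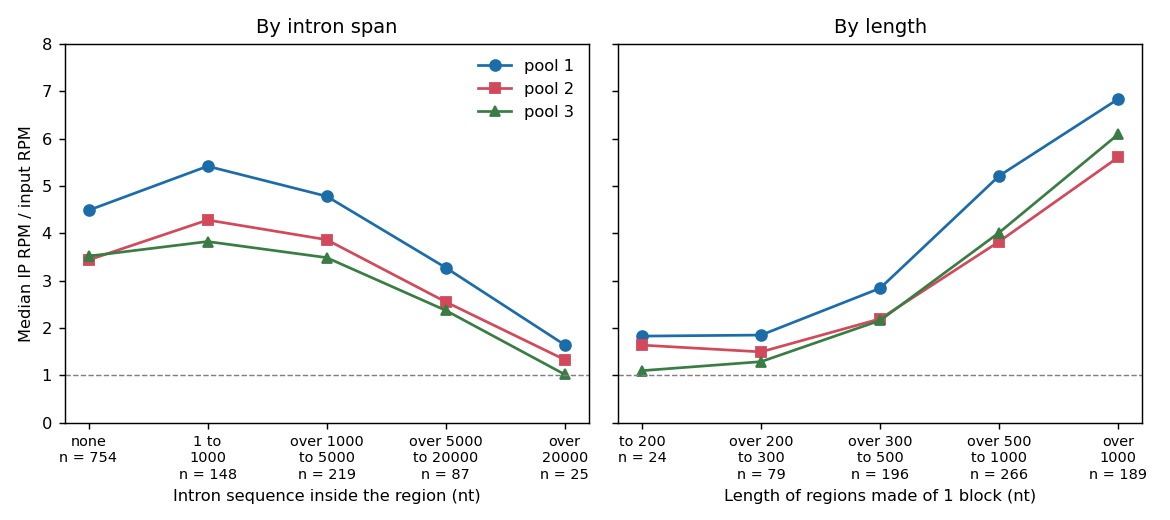
Median ratio of IP RPM to input RPM in each knockout pool by the intron sequence inside a region (left) and, for regions of 1 block, by length (right); n is the number of regions in a bin and the dashed line marks 1. Medians fall to 1.64, 1.33 and 1.02 beyond 20000 nt of intron and reach 6.84, 5.61 and 6.09 in 1-block regions over 1000 nt.

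Of the 5 features compared, length had the largest rho with the ratio. In regions of 1 block the median ratio was 1.85, 1.49 and 1.29 in the 79 regions over 200 and up to 300 nt and 6.84, 5.61 and 6.09 in the 189 regions over 1000 nt. Of the former 34 were higher in IP (43.0%) and of the latter all 189. Spearman's rho between length and the fitted log2 ratio was 0.70 over these 754 regions and 0.61 over all 1233, given as a description. How the borders of the regions were set is not given in the sources used, and they may depend on these same reads. Regions with more input per kb had lower ratios (rho -0.44, -0.43 and -0.46 in the 3 pools), although input enters both measures.

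The authors' annotation is given at a region's centre, which can fall in an intron between its exon blocks. By it the 265 regions in last exons had median ratios of 5.48, 4.16 and 4.15, and the 373 in 3′UTRs 4.24, 3.23 and 3.50. The 369 in the intron class had 4.24, 3.27 and 3.04, with 9 of the 11 regions below input. The 28 regions in the authors' 5′UTR class had 6.48 and 5.38 in pools 1 and 2, a median log2 ratio of 2.47, and 24 of them were over 2-fold (85.7%). Position along the transcript was also read at the spliced midpoint of each region in the GENCODE M21 annotation of GRCm38. There, 3 regions lay outside an exon of their gene. The 520 regions in coding sequence had median ratios of 4.76, 3.90 and 3.69, and 397 of them were over 2-fold by test (76.3%). The 583 regions in 3′UTRs had 4.07, 2.98 and 3.19 and 379 over 2-fold (65.0%), with a median length of 571 nt against 807 nt in coding regions. Regions in exons of noncoding transcripts had 4.60, 4.10 and 3.16 (n = 109), and the 18 regions in 5′UTRs had 2.82, 2.14 and 1.97, of which 3 were below input. The 5′UTR class is thus the highest of these in the authors' annotation and low in GENCODE M21. Along the coding transcripts the median was highest, at 6.15, 5.09 and 5.27, in the 78 regions centred 250 to 500 nt before the end of the stop codon. It was 3.94, 2.85 and 2.94 in the 263 regions centred up to 250 nt behind it. Those regions were also shorter, with a median length of 511 nt against 1019 nt. Among regions over 500 nt the same bins had 6.88, 5.37 and 5.41 (n = 68) and 6.01, 4.38 and 4.72 (n = 142).

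**Figure D4:**
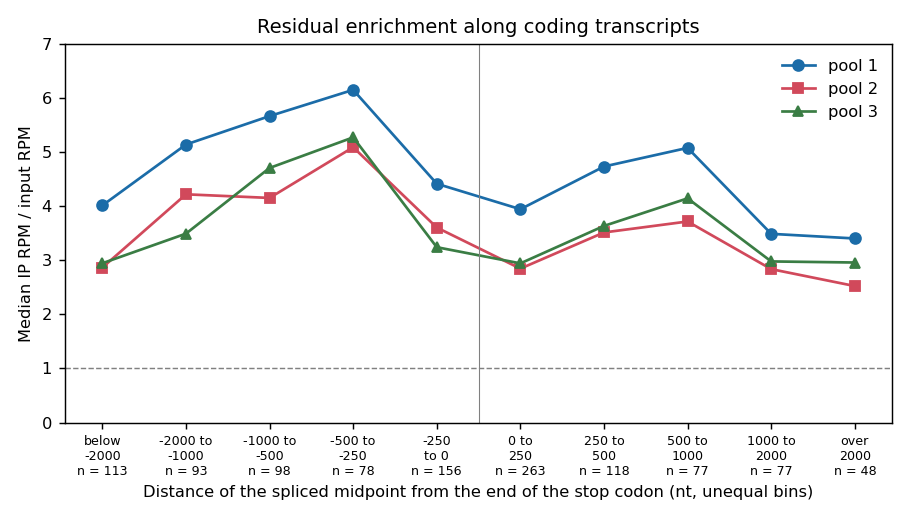
Median ratio of IP RPM to input RPM in each knockout pool by the distance of a region's spliced midpoint from the end of the stop codon (nt, unequal bins; negative values lie upstream); n is the number of regions. The bin from -500 to -250 nt is highest in each pool, at 6.15, 5.09 and 5.27.

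The DRACH motif did not separate regions by their ratio. The search took any base but C, then a purine, then AC, then any base but G, on the RNA strand alone, in 100 nt at the spliced midpoint of 1228 regions, overlapping matches included. At least 1 match lay in 1148 windows (93.5%). The share was 94.4% in the 309 regions of lowest fitted ratio and 92.2% in the 308 of highest, with 2.57 ± 1.41 and 2.47 ± 1.51 matches per window (SD over regions). Of the 119 regions with no call, 114 of 116 windows held the motif (98.3%), and so did 10 of the 11 windows below input (90.9%). With GGAC alone the share was 42.6% in the 309 regions of lowest fitted ratio and 44.3% in the 308 of highest. It was 43.1% in regions with no call and 54.5% in the 11 below input. Spearman's rho between the number of matches and the ratio was -0.01, -0.04 and -0.06 in the 3 pools.

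Of all regions 89.5% were higher in IP and 70.3% over 2-fold, with a median log2 ratio of 1.90 and a median length of 630 nt. With TMM scaling on the listed regions the log2 ratio turned negative at 21 named regions, among them Nkx6-1 at -0.61, Slc30a8 at -1.07, Ucn3 at -1.01, Gnas at -1.08 and Ctnnb1 at -0.67, so the counts of higher regions below hold for total reads. Genes of β-cell identity had regions over most of the range. Of 15 regions of β-cell transcription factors 13 were higher in IP (86.7%, against 89.5% of all regions) and 9 of 15 were over 2-fold (against 70.3% of all), with a median log2 ratio of 1.36 against 1.90 and a median length of 390 nt against 630 nt. Mafa, an activator of the insulin gene in mature β-cells, had ratios of 7.82, 10.6 and 29.0 in 1 of its regions (chr15:75746532-75747246), where input was 49.0, 25.8 and 15.6 RPM and IP 383, 274 and 454 RPM. The order of these inputs is the reverse of that of the ratios. Its other region (chr15:75745907-75746085) had 2.84, 2.45 and 2.46, a log2 ratio of 1.36. Isl1, a LIM-homeodomain factor of all islet endocrine cells, had 7.06, 5.05 and 3.41 (log2 ratio 2.27), and Nkx6-1, which keeps β-cell identity, 2.71, 2.24 and 2.51 (log2 ratio 1.31, edgeR adjusted p = 9.5e-10). Rfx7, Glis3 and Esrrg had log2 ratios of 2.80, 2.65 and 2.14, while Ssbp3 and St18 were at 0.72 and 0.56. Rfx3 and Atf2 had no call.

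All 5 insulin granule regions were higher and 3 were over 2-fold, against 89.5% and 70.3% of all. The zinc transporter gene Slc30a8 had 88.8, 89.3 and 91.0 RPM in input and 200, 159 and 133 RPM in IP (log2 ratio 0.87, edgeR adjusted p = 4.3e-05). Ucn3, a peptide of mature β-cells, had ratios of 1.77, 1.92 and 1.96, and neither was over 2-fold by test. Pcsk1, the convertase that opens proinsulin, had 5.68, 3.69 and 2.76, and Cpd and Ptprn2 had log2 ratios of 2.00 and 2.07. All 7 exocytosis regions were higher in IP and 5 were over 2-fold (71.4%, near the 70.3% of all), with Rims2, a scaffold of docked granules, at 3.39, the synaptotagmin Syt13 at 2.24 and the complexin Cplx2 at 1.23. In calcium handling, Atp2b1, a plasma membrane calcium pump gene, had ratios of 15.3, 13.7 and 8.50 in 1 region and of 1.29, 1.34 and 1.19 in another with 10579 nt of intron. Among 8 such regions 6 were higher (against 89.5% of all), including Cacna2d1, a calcium channel subunit gene, at a log2 ratio of 2.29.

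Of 14 receptor and cAMP regions 13 were higher in IP and 10 over 2-fold (92.9% and 71.4%, near the 89.5% and 70.3% of all), with a median log2 ratio of 2.40. The growth hormone receptor gene Ghr was at 3.37, the incretin receptor gene Gipr at 2.70 and the muscarinic receptor gene Chrm3 between 2.67 and 2.88 in 3 regions. The prolactin receptor gene Prlr ranged from 0.59 to 2.45 over 4 regions. Gnas, which encodes a stimulatory G protein subunit, had 114, 123 and 123 RPM in input and 216, 242 and 185 RPM in IP (log2 ratio 0.84, edgeR adjusted p = 8.7e-05), with Gm20721 overlapping on the other strand. All 5 insulin signalling regions were higher, as were 89.5% of all, from Rictor at 3.12 and Irs2 at 2.74 to Foxo1 at 0.43. Irs2, an adaptor of the insulin receptor, had ratios of 7.72, 5.46 and 7.20. Foxo1, a transcription factor that insulin keeps out of the nucleus, passed narrowly with 1.64, 1.27 and 1.16 (edgeR adjusted p = 0.045) in a region with 76221 nt of intron. The region overlaps an exon of Gm20402 on the other strand. Its call was lost with all 12 libraries in the fit (edgeR adjusted p = 0.098), without pool 1 or pool 2, and without input 1, input 2, IP 1 or IP 3 alone.

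In the unfolded protein response 5 of 7 regions were higher and over 2-fold (71.4%, against 89.5% and 70.3% of all). Hspa5 was at a log2 ratio of 3.16, the disulfide isomerases Pdia4 and Pdia3 at 2.22 and 1.51, the lectin chaperone Canx at 1.75 and the stress sensor Ern1 at 1.74. The sensor Atf6 was below input, with ratios of 0.720, 0.638 and 0.464 in a region with 37018 nt of intron (log2 ratio -0.75, edgeR adjusted p = 0.00087). The co-chaperone Dnajc3 had no call at 0.46. The m6A machinery itself was higher in IP at all 6 of its listed regions, against 89.5% of all, with the reader Ythdc1 at 3.16 and ratios of 7.52, 15.3 and 6.01. The E3 ligase Cbll1 of the writer complex was at 2.64, the reader Ythdf1 at 2.03, Hnrnpc at 2.08, and the writer subunits Wtap and Rbm15 at 2.00 and 1.34. The regions of Ythdc1 and Cbll1 each overlap another annotated gene.

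Of 17 chromatin regulator regions 15 were higher and 11 over 2-fold (88.2% and 64.7%, near the 89.5% and 70.3% of all). Arid1a, a SWI/SNF subunit gene, had ratios of 10.4, 9.10 and 9.13 (chr4:133680057-133684563, log2 ratio 3.26), the remodeller Chd9 4.12, 3.05 and 3.14, and the acetyltransferase Crebbp 2.63, 1.71 and 1.63 with 33005 nt of intron. Smarcc2 and Kdm3b had no call, at 0.53 and 0.83. The 7 Wnt pathway regions were all higher, but 2 were over 2-fold (28.6%, against 70.3% of all), with β-catenin (Ctnnb1) at 2.96, 2.10 and 2.17 and its cofactor Bcl9 at 4.29, 3.51 and 6.06. Of 34 regions of genes with Zfp symbols, DNA-binding zinc finger proteins in the main, 33 were higher and 32 over 2-fold (97.1% and 94.1%, against 89.5% and 70.3% of all), with a median log2 ratio of 2.52 against 1.90. Their median length of 1154 nt was also above the 630 nt of all regions. Zfp292, Zfp644 and Zfp638, the most abundant in input, were at 2.51, 1.76 and 1.67, and Zfp810 had no call at 0.72 in the lower of its regions.

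**Figure D5:**
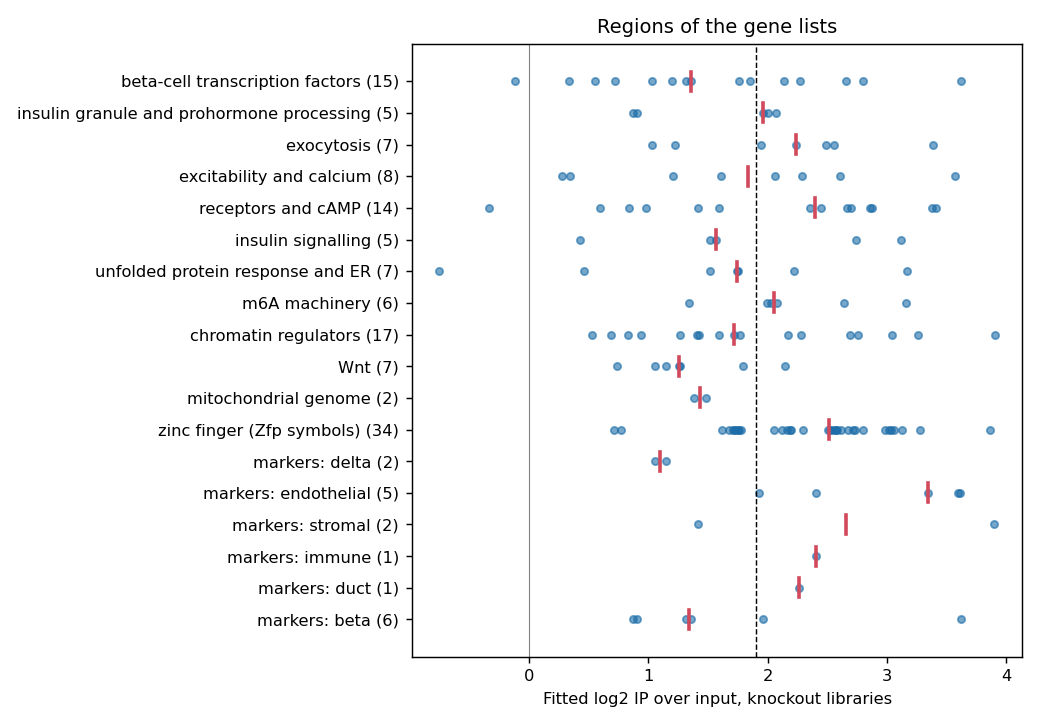
Fitted log2 ratio of IP to input for each region of the gene and marker lists; points are regions, red bars are list medians, the dashed line is the median of all 1233 regions (1.90) and the number of regions is in brackets. The zinc finger and endothelial regions lie mostly to the right of the dashed line and the Wnt regions mostly to its left; with TMM scaling on the list, regions near or left of the dashed line can change sign.

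Markers of islet cells other than β-cells, in which RIP-Cre is not meant to act, were few in the list. No α-cell, PP-cell, acinar or Schwann cell marker had a region, so that their levels are not given. All 5 endothelial regions, in 4 of the 10 markers, were over 2-fold, against 70.3% of all regions. The endothelial cadherin gene Cdh5 had ratios of 12.5, 8.74 and 18.5 and the TGF-β co-receptor gene Eng 10.8, 9.54 and 22.5, in 3′UTR regions of 1 block. Plvap, which forms the diaphragms of fenestrated vessels, had 4.07, 6.11 and 6.84, and Podxl, a surface sialomucin gene, 2.41, 4.18 and 6.29 in 1 of its regions. Input over the 5 endothelial regions summed to 84.2, 59.6 and 42.4 RPM in the 3 pools, and IP to 458, 397 and 390 RPM. In bulk islets, fewer cells of a type and less RNA per cell cannot be told apart.

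The other marker lists had 1 or 2 genes each. The pericyte marker Cspg4 had ratios of 19.1, 7.73 and 51.8 on 0.638, 1.10 and 0.164 RPM of input, the latter a few reads, and the basement membrane collagen gene Col4a2 2.08, 2.54 and 4.05. The complement gene C1qb of macrophages had 4.61, 5.57 and 5.83 and the duct marker Cldn4 4.52, 3.85 and 6.45. Frzb, a secreted Wnt antagonist used as a δ-cell marker, had 2.87, 1.54 and 1.95 (log2 ratio 1.05, edgeR adjusted p = 3.3e-06). Of 13 β-cell markers 5 were in the list (Mafa, Ucn3, Nkx6-1, Slc30a8 and Pcsk1). All 6 of their regions were higher in IP, against 89.5% of all, and 4 were over 2-fold (66.7%, against 70.3% of all). Their median log2 ratio was 1.34 against 1.90, and their median length 506.5 nt against 630 nt. Input of these β-cell regions summed to 338, 318 and 287 RPM, with β-cell marker RNA in each pool. The part that cells with intact Mettl3 have in any of these ratios was not tested.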

How the data were processed

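RNA was cut to about 100 nt before the m6A IP, and IP and input were read from both ends at 150 bp, per the labels' protocols. HOMER 4.9.1, BWA 0.7.12 and fastp 0.19.11 with GRCm38.p6 are listed in the submitters' processing notes, without their roles. Which program called peaks and counted reads is not given in the sources used. The authors deposited a read count per region and library, the total reads of each library, RPM values and a log2 change between genotypes, per the file headers. The last was used only to count listed directions.

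Members and lists were chosen with earlier results of these data known. Counts of the 6 knockout libraries were fitted with edgeR 4.0.16 (R 4.3.3), quasi-likelihood, IP against input, with total reads as library sizes, no filter, and Benjamini-Hochberg adjustment over 1233 regions at 0.05. A log2 ratio is the fitted one, and a ratio per pool is IP RPM over input RPM of libraries whose titles carry 1 number. The labels do not say that this number marks a shared pool. P-values measure the spread between these replicates. An SE is the size of the fitted log2 ratio divided by the square root of the F statistic of its test. The common dispersion was 0.0417. In counts simulated over 1233 regions, a minority was changed, up and down alike, with the common dispersion for every region. There 91.0% of log2 changes of 1 and 100% of log2 changes of 2 were recovered, and 3.5% of calls were false. The data differ from this setting, since most regions were called higher. No count was 0, and 191 of 220 input counts of 30 or less were odd, so low values are uncertain. Symbols were matched for 1105 of 1108 genes, and sequences came from GENCODE M21 transcripts. Named genes were the 8 highest and 8 lowest log2 ratios at a mean input count of at least 20, the 6 most abundant without a call, the 6 of highest IP signal, up to 3 most abundant per list, and every marker; genes outside this rule are named as further list members, as members of gene pairs or as picked later. Python 3.11.15 was used for descriptions. Results for a few list members are not reported here.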

Additional observations from a re-analysis of the deposited data

How the results depend on the processing

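Numbers of calls held within 1.5 times under the replicate block (1091 higher, 11 lower, 131 with no call) and DESeq2. They also held with total reads less the listed regions, a mean count of at least 50, all 12 libraries and merged identical regions. The same was true with every count less 1 and halved and total reads halved, a setting for the odd values. Same-numbered IP and input deviated with correlations of 0.05, -0.07 and -0.07, and the main fit did not pair them. Ratios per pool, their SD, counts over pools and fits without a pool do match libraries by number. TMM scaling on the listed regions gave 360 higher, 375 lower and 498 with no call, a median of -0.024, 79 regions at least 2-fold in every pool and 56 over 2-fold by test. It reversed 21 named regions, among them Atp2a2 to -1.66, Wdr49 to -1.72, mt-Nd6 to -0.51, Gm26917 to -0.14, mt-Nd2 to -0.41, Nkx6-1 to -0.61, Slc30a8 to -1.07, Ucn3 to -1.01, Cplx2 to -0.69, Atp2b1 to -1.58, Gnas to -1.08, Foxo1 to -1.50, Pdia3 to -0.39, Crebbp to -0.97, Chd9 to -0.15, Frzb to -0.89, Ctnnb1 to -0.67, Zfp638 to -0.25, Zfp644 to -0.17, Col4a2 to -0.51. In regions of 1 block alone, a choice made after seeing the data, 663 were higher, 0 lower, 506 at least 2-fold in every pool and 516 over 2-fold. Leaving out a pool or a library gave 1039 to 1096 higher, 9 to 13 lower, 128 to 181 with no call, a median of 1.79 to 1.98, 856 to 922 at least 2-fold in every remaining pool and 804 to 870 over 2-fold. The sign of these regions without a call depended on the libraries kept, with log2 ratios from -0.36 to 0.0096 for Chic1, -0.0040 to 0.46 for Atp2a2, -0.19 to 0.19 for ENSMUSG00000099703, -0.25 to 0.058 for 1700019D03Rik, -0.74 to 0.30 for Dmxl1, -0.45 to 0.33 for Rfx3, -0.51 to 0.34 for Mia3, -0.43 to 0.19 for Kcnmb2, -0.61 to 0.50 for Lpgat1. ENSMUSG00000099703 was at 0.0062 with the replicate block and at 0.076 with total reads less the listed regions, where Lpgat1 was at 0.0039. The share of windows with DRACH in the highest against the lowest quartile differed by -2.24 points, by 1.68 points for GGAC alone, and the mean per 100 nt of the whole region by -0.021. The median log2 ratio of 3′UTR regions differed from that of other classes by -0.08 in the authors' annotation and by -0.27 in GENCODE M21. Causes of these moves were not tested. At low input depth single reads move a ratio.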
